A study of Mus musculus with 2 samples.

Results

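Between the promoter itself and distal chromatin lies a zone of 1 to 3 kb around each transcription start, and 3281 of the 25793 Myb peaks in Lin- bone marrow cells had their summit there. A peak was placed in this flank when its summit lay more than 1 kb and at most 3 kb from the nearest start of a protein-coding transcript (GENCODE vM21 annotation, mm10 build). The flank held 12.7% of the list (95% interval, 12.3% to 13.1%), compared with 34.7% (8954 peaks) within 1 kb of a start, termed start peaks, and 52.6% (13558 peaks) farther away, termed distal peaks. By the strand of the gene, 1175 flanking peaks were upstream and 2106 downstream of their start. For 2145 of them a second Myb peak lay within 1 kb of the same start, and 1136 had none. All intervals in the text are 95% intervals of counting error over peaks, exact unless another method is named.

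The cells were bone marrow of WT mice depleted of lineage-positive cells, at a stated purity above 80%. This depletion leaves mainly the immature blood cells, among them the stem and progenitor cells (HSPCs). ChIP-Seq was performed with an antibody against Myb, and a rabbit IgG precipitate of the same kind of cells served as the control against which the authors called peaks. There was 1 library of each kind, with no replicate, and the labels give the genotype only as WT. In the study's methods all mice had a C57BL/6 background, both sexes were used, and WT denotes Ep300 fl/fl animals without Cre that received poly(I:C) as young adults. The sources used here do not give the age, sex or number of the animals behind these libraries, nor whether they received poly(I:C). A peak list carries no expression, so the identity of the cells could not be checked against marker genes, and no p-value was computed, because peaks of 1 library are not replicates.

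Myb is a transcription factor with a helix-turn-helix DNA-binding domain that HSPCs need for self-renewal and for the lymphoid, erythroid and myeloid lineages. Its transactivation domain binds the coactivators p300 and CBP. Regulatory DNA near a gene is not limited to the core promoter, and in blood cells enhancers often lie in the first intron or shortly upstream of the start, where GATA, RUNX, CEBP and ETS family factors bind next to Myb. Many vertebrate starts are embedded in CpG islands.

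The summit windows below show what the recognition sequence of Myb looks like at these peaks. They are the windows, outside exons, of those of the 8 strongest upstream and 8 strongest downstream peaks that held a Myb motif within 50 bp of the summit. The motif was counted as any of the 4 words CAACGG or CAACTG, and TAACGG or TAACTG, on either strand. Each line gives the gene of the nearest start, the side, the GRCm38 (mm10) position and the bases up to 50 bp from the summit on the forward strand of the reference genome, 5′ to 3′, with the motif in capitals (reverse-strand words appear as their reverse complement, such as CAGTTG for CAACTG).
Cbfa2t3, upstream, chr8:122700846-122700946: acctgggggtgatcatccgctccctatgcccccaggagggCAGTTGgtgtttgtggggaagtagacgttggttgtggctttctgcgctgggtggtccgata
Ints1, upstream, chr5:139777115-139777215: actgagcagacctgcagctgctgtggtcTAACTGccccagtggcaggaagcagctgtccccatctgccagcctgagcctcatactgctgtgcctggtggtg
Plek, upstream, chr11:17004985-17005085: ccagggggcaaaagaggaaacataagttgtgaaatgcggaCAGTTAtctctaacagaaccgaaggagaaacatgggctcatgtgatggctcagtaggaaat
Asap1, downstream, chr15:64310803-64310903: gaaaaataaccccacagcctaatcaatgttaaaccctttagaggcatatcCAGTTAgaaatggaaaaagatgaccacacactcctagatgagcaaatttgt
Gtf2a1, downstream, chr12:91588840-91588940: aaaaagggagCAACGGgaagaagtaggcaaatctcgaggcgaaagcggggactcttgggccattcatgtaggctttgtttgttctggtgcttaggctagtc

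At Asap1 the center of the word lay 3 bp from the summit, at Cbfa2t3 and Plek 7 bp, at Ints1 19 bp and at Gtf2a1 37 bp. The next windows come from genes with known roles in HSPCs and their progeny. From each of 8 gene lists the strongest flanking peak with a motif outside exons was taken, and the lymphoid list had none.
Mecom, downstream, chr3:30506868-30506968: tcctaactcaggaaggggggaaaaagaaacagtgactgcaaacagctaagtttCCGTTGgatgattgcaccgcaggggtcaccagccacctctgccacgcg
Ifngr2, upstream, chr16:91545529-91545629: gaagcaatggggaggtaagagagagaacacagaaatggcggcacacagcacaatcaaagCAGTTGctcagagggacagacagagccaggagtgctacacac
Tnfaip3, downstream, chr10:19009388-19009488: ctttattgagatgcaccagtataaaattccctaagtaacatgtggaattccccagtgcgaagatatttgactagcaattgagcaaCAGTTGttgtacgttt
Cdk6, upstream, chr5:3342640-3342740: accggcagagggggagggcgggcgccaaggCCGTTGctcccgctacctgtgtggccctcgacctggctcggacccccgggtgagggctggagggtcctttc
Ezh2, downstream, chr6:47593846-47593946: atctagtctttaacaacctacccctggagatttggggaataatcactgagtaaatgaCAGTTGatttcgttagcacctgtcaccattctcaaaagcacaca
Elane, upstream, chr10:79884416-79884516: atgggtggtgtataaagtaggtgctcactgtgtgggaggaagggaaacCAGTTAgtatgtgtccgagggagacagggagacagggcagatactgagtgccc
Epb41, downstream, chr4:132047673-132047773: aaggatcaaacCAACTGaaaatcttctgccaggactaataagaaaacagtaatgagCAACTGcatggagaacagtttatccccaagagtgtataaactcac

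Centers of these words lay 1 bp from the summit at Elane, 6 bp at Mecom, 9 bp at Epb41, 10 bp at Ezh2, 12 bp at Ifngr2, 17 bp at Cdk6 and 38 bp at Tnfaip3. The window of Epb41 held 2 words. The flanking peak with the highest fold enrichment, in the first intron of Serinc3, held none, and its window is shown because it contains a direct repeat.
Serinc3, downstream, chr2:163642842-163642942: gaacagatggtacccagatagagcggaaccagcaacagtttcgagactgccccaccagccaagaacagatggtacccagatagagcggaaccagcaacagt
In that window a run of 39 bases recurred identically at a spacing of 62 bp, whereas the longest such run in the other summit windows examined was 15 bases, at Skil.

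To see how peaks were distributed across the flank, their number was set against the amount of sequence at each distance. The flank held 30.3 Myb peaks per Mb (29.3 to 31.4), 5.71 times the density of distal sequence (5.49 to 5.93), and start regions held 4.58 times the density of the flank. The flank was asymmetric. Downstream there were 37.6 peaks per Mb over 56.1 Mb, and upstream 22.5 per Mb over 52.2 Mb, a ratio of 1.67 (conditional Poisson interval, 1.55 to 1.79). Upstream the density fell from 30.5 per Mb at 1.0 to 1.5 kb to 23.7, 18.8 and 15.9 per Mb in the following steps of 500 bp, and was 15.2, 14.6 and 14.8 per Mb in the steps beyond 3 kb, with overlapping intervals. Downstream the corresponding values were 53.7, 39.0, 29.9 and 26.2 per Mb, and beyond 3 kb they were 23.8, 21 and 17.5 per Mb. The last upstream step of the flank (13.8 to 18.3) overlapped the steps outside it, and the last downstream step (23.5 to 29.1) overlapped the next steps out (21.2 to 26.6 and 18.5 to 23.7) but not the one that ended at 4500 bp (15.3 to 20.0).

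**Figure D1:**
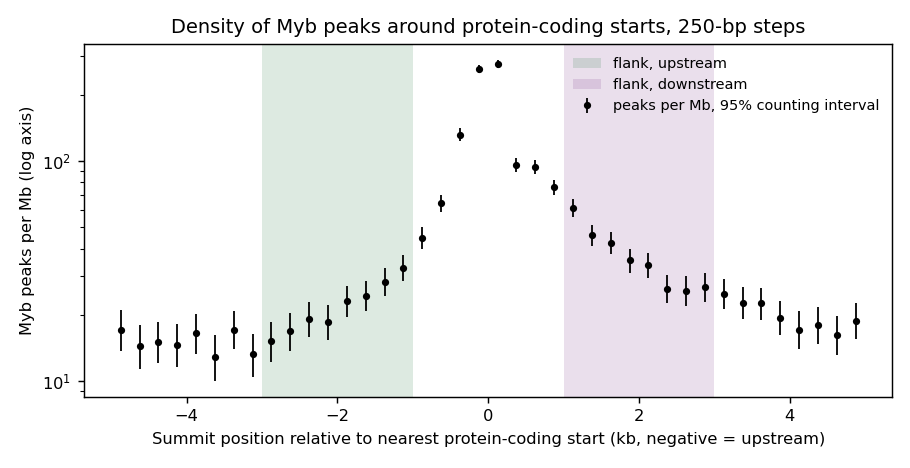
Myb peaks per Mb (log axis) in steps of 250 bp by the signed distance of the summit from the nearest protein-coding start in kb, with 95% Poisson intervals as bars and the flanks shaded. The downstream flank, at 37.6 peaks per Mb in all, sits above the upstream flank, at 22.5.

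The annotated feature at the summit differed by side. Of the downstream peaks, 1559 (74.0%) lay in the first intron of a transcript that begins at the nearest start, 281 (13.3%) in a later intron, 138 (6.55%) in an exon of it, and 128 (6.08%) beyond its end. Of the upstream peaks, 625 (53.2%) were intergenic, 424 (36.1%) were in an intron of some annotated transcript, and 146 (12.4%) lay inside another protein-coding gene. Exons of any kind held few members, with 15 summits in 5′ UTRs, 119 in 3′ UTRs, 93 in coding exons and 285 in noncoding exons.

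A noncoding start was near some of the peaks. A start of a noncoding gene, or of a noncoding transcript of a coding gene, lay within 1 kb of 529 summits (16.1%, 14.9% to 17.4%), against 8.66% of positions taken every 250 bp in the same flanks of all protein-coding starts, 67.8% of start peaks and 9.23% of distal peaks. In 298 of the 529 it belonged to the same gene. Downstream peaks had such a start more often than upstream peaks, 18.2% against 12.3%, and the upstream minus downstream difference was −5.89 percentage points (Newcombe interval, −8.34 to −3.33). The windows across all flanks differed in the same direction, with 10.6% downstream and 6.60% upstream. They were evenly spaced and not matched to the peaks, which were denser near 1 kb. From 1.0 to 1.5 kb to 2.5 to 3.0 kb, the share of peaks near a noncoding start fell from 24.3% to 12.5% downstream. Upstream it fell from 17.0% to 8.67%. Median fold enrichment was 4.35 (4.18 to 4.47) with such a start and 4.29 (4.23 to 4.39) without, and the intervals overlapped. When the starts of noncoding transcripts of coding genes were themselves used to define the flank, the share was 5.82%.

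Flanking peaks gathered at genes that also had a start peak. A flanking peak was assigned to 2564 protein-coding genes, which is 11.7% of the 21862 annotated, and a start peak was found at 31.4% of them. Among the flanked genes 1786 (69.7%) had a start peak, against 26.3% of the genes without a flanking peak. Read the other way, 26.0% of the genes with a start peak had a flanking peak, against 5.19% of those without. A flanking peak without a start peak was found at 778 genes, among them some, such as Lyl1 and Kdm6a, where the flanking interval itself reached over the start, and 268 genes had peaks in the flanks on both sides. The share also differed by the number of annotated starts, and the reason was not tested. A flanking peak was found at 8.48% (7.88% to 9.10%) of genes with 1 coding start, 9.78% with 2, 13.1% with 3 and 19.4% (18.3% to 20.6%) with 4 or more. Among genes with a start peak, the shares were 23.5%, 23.7%, 26.1% and 29.7% in the same order.

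For single peaks, the share with a second peak at the same start was 65.4%, and it was 38.1% when flanking and start peaks with a −log10 q-value below 5 were left out. It was 61.7% upstream and 67.4% downstream, a difference of −5.72 percentage points (Newcombe interval, −9.16 to −2.32). The start itself differed between the classes in composition. A start was called CpG-island-like when the 501 bp around it had at least 50% GC and a ratio of observed to expected CpG of at least 0.6. This held for 77.6% of the starts of peaks with a second peak and for 42.7% of the starts of peaks without, beside 46.0% of all protein-coding starts. In 70 of the 1136 peaks without a second peak (6.16%), the interval of the flanking peak itself reached over the start, which was also the case for 17 of the 2145 peaks with a second peak. The 70 peaks had a median width of 2560 bp and a median fold enrichment of 8.62 (7.75 to 9.31). The other 1066 had a median width of 522 bp and a median fold enrichment of 4.37 (4.23 to 4.44), against 557 bp and 4.22 (4.18 to 4.30) for peaks with a second peak.

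Flanking peaks had the lowest median strength of the 3 classes. The median fold enrichment, the scaled Myb reads at the summit over the IgG background with 1 added to both, was 4.29 (4.23 to 4.40) in the flank, 4.69 (4.67 to 4.72) at starts and 4.48 (4.47 to 4.52) at distal sites. The flank ranged from 1.82 to 26.2. Upstream peaks had a median of 4.40 (4.27 to 4.47) and downstream peaks of 4.25 (4.18 to 4.34), with overlapping intervals. By distance the medians had overlapping intervals, at 4.29, 4.40, 4.47 and 4.44 in the 4 upstream steps of 500 bp and 4.23, 4.22, 4.33 and 4.22 in the downstream ones. The median summit rested on 17 Myb reads, recovered from the deposited fold enrichment and p-value, against 20 at starts and 18 at distal sites. Fewer than 20 reads covered 64.6% of the flanking summits. The q-value was above 0.05 in 8.87% of them, in 6.08% of start peaks and in 7.61% of distal peaks. At such read numbers, peaks near the median could not be ranked against each other.

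Where a flanking peak and a start peak shared a start, the start peak was usually the stronger. It had the higher fold enrichment in 1449 of the 2145 pairs, the flanking peak in 684 (31.9%, 29.9% to 33.9%), and 12 were tied. Where a start had several peaks the strongest was used, which tilts the comparison toward the start. The pairs lay at 1803 starts, so a start peak could enter more than 1 pair, which the interval does not account for. The median ratio of flanking to start fold enrichment was 0.795 (0.772 to 0.814), with a range from 0.0891 to 5.22. Medians were 4.22 and 5.44, on 16 and 23 reads. The summits of a pair were 1818 bp apart in the median, and a median of 848 bp separated their intervals. The smallest gap was 75 bp, and whether close pairs are parts of 1 enriched stretch was not tested. Counting error limits the comparison of a single pair. The exact Poisson intervals of the read numbers did not overlap in 370 pairs, with more reads at the start in 326 and in the flank in 44. By fold enrichment, 392 start peaks were over 2 times their flanking peak and 96 flanking peaks over 2 times their start peak. Fold enrichment also depends on the background at each summit, whose error was not included. Upstream pairs had a ratio of 0.824 (0.798 to 0.870) and downstream pairs of 0.772 (0.744 to 0.799).

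**Figure D2:**
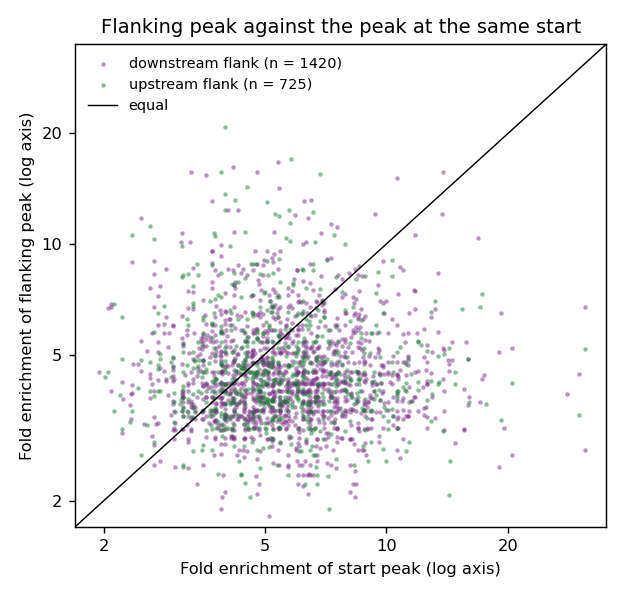
Fold enrichment of the flanking peak against that of the strongest peak within 1 kb of the same start (log axes), 1 point per pair, for 725 upstream and 1420 downstream flanking peaks; the line marks equal values. Most points, 1449 of 2145, fall below the line.

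The pairs in which the flank most exceeded the start were at Rabggta, Il15, Slc22a4, Acot7 and Flt3l. At Rabggta, which encodes a subunit of the enzyme that attaches geranylgeranyl groups to Rab proteins, the flanking peak had 20.8-fold enrichment on 80 reads (63.4 to 99.6), and the stronger of the 2 start peaks 3.98-fold. Il15 encodes a cytokine for natural killer and memory T cells, and its intronic peak 1239 bp downstream had 15.7-fold enrichment against 3.28-fold at the start. At Flt3l, the gene of the ligand of the progenitor receptor Flt3, the values were 11.2-fold 1167 bp upstream and 2.60-fold at the start. Slc22a4, an organic cation transporter, had 11.8-fold against 2.48-fold, and Acot7, an acyl-CoA thioesterase, 10.6-fold against 2.35-fold.

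The strongest upstream peaks lay next to genes of several classes. The first was that of Rabggta, 2441 bp upstream (chr14:55723997-55725460). It was followed by Cbfa2t3, which encodes the corepressor ETO2 of erythroid and stem cell complexes, with 18.6-fold enrichment on 122 reads (101 to 146), 1787 bp upstream (chr8:122697215-122703392). Next was Lyl1, a basic helix-loop-helix factor of HSPCs related to Tal1, with 17.5-fold enrichment on 88 reads, 1428 bp upstream (chr8:84698985-84702601) and 848 bp from a noncoding transcript start of Trmt1. Skil, a corepressor of SMAD proteins, had 17.0-fold enrichment, Ints1, a subunit of the Integrator complex, 16.7-fold, and Plek, a protein kinase C substrate of platelets and leukocytes, 15.7-fold. Tnfaip8 had 15.5-fold and Foxp1, a forkhead factor, 15-fold. The intervals of the peaks at Cbfa2t3, Lyl1 and Ints1 reached over the start, and these genes had no separate start peak. Upstream here refers to the nearest protein-coding start only. The summits at Cbfa2t3, Plek, Tnfaip8 and Foxp1 lay in an intron of an annotated transcript, and that at Lyl1 in a noncoding exon. A Myb motif was present at Cbfa2t3, Lyl1, Ints1 and Plek.

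Downstream, the strongest peak lay 2239 bp into Serinc3, a multipass membrane protein gene, with 26.2-fold enrichment on 99 reads (80.5 to 121) in a wide interval that also reached over the start (chr2:163640162-163645571). Mfsd2b, the sphingosine-1-phosphate exporter of red cells and platelets, had 19.5-fold enrichment 1105 bp downstream (chr12:4872366-4875064), again with an interval over the start. Rnf125, a ubiquitin ligase, had 17.0-fold, and its interval also reached over the start. The peak 2528 bp from the start of Tmem107, with 16.7-fold, was 88 bp from the start of the small nucleolar RNA gene Snord118. Asap1, an Arf GTPase-activating protein, had 16.2-fold, and Gtf2a1, a subunit of TFIIA, Nsmaf and Il15 had 15.7-fold. Of these, only Asap1 and Gtf2a1 held a Myb motif in the window. Gtf2a1 also had a strong start peak, with 13.8-fold enrichment. The read intervals of neighbors in this order overlapped.

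At the bounds of the flank the peaks were ordinary. Those just inside the inner bound were at Arf1 and Il12a, each 1001 bp downstream, with 3.98-fold and 5.07-fold enrichment, and those just outside were at 2610301B20Rik and Spint2, each at 1000 bp, with 6.65-fold and 3.42-fold. At the outer bound, Pafah1b2 and Ptprj at 3000 bp had 5.16-fold and 4.65-fold, and Bahcc1 at 3001 bp and Pdzd8 at 3002 bp had 6.75-fold and 4.15-fold. Most starts had a single flanking peak, 2434 of 2830, and 5 starts had 4 of them, at Arf1, Ripor2, Rpl24, Gda and Mlec. Among the 20 peaks at these 5 starts, the highest fold enrichments were 9.31, upstream of Ripor2, and 6.36, in the first intron of Mlec.

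Whether the recognition sequence lay under the summits was examined next. A Myb motif was present at 548 flanking summits, or 16.7% (15.4% to 18%). Over all peaks of the list the share was 16.7% as well. In equally sized windows 500 bp beside the flanking summits, on both sides, it was 11.2%, and in windows every 250 bp across the flanks of all protein-coding starts 10.6%. The flanking share lay between those of start peaks, 12.9%, and distal peaks, 19.1%. It was 3.76 percentage points above the former (Newcombe interval, 2.33 to 5.24) and 2.40 points below the latter (the difference of flanking minus distal was −2.40, with an interval from −3.81 to −0.933). Upstream peaks held it in 18.3% (16.1% to 20.6%) and downstream peaks in 15.8% (14.3% to 17.4%), and the difference, 2.49 points, had an interval that included 0 (−0.172 to 5.24).

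**Figure D3:**
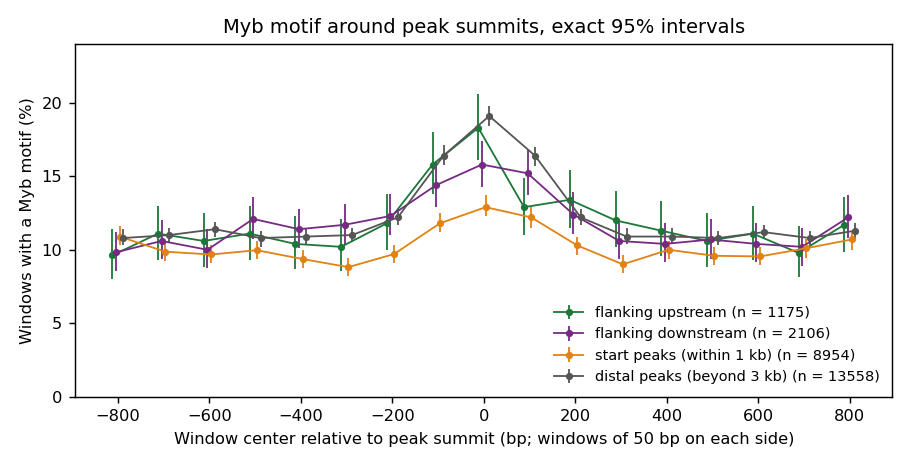
Share of windows of 50 bp on each side of their center with a Myb motif (%) by the distance of the window center from the summit (bp), with exact 95% intervals, for upstream and downstream flanking, start and distal peaks. At the summit the shares are 18.3%, 15.8%, 12.9% and 19.1%, and at 300 bp or more from it all groups lie between 8.82% and 12.2%.

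The motif share moved with the strength of the peak and with its composition. It was 19.9% in flanking peaks with 20 or more reads and 15% in those with fewer, a difference of 4.94 points (2.24 to 7.75). With the flanking peaks split by fold enrichment into 4 groups of similar size, from the lowest to the highest, the shares were 15.4%, 12.9%, 17.7% and 20.8%. In the 174 flanking peaks in CpG-island-like sequence the motif was found in 12 windows, 6.90%, against 17.3% in the rest (difference −10.4 points, −13.6 to −5.41). With GC content held within bands, the share exceeded that of the flank windows of all starts in every band, 1.59 times below 40% GC, 1.63 times from 40% to 50%, 1.60 times from 50% to 60% and 1.29 times above 60%, where the interval of the flanking peaks (5.21% to 13%) included the 6.59% of the windows. Peaks without a second peak at the start held the motif in 18.3% and peaks with one in 15.9%. The difference of −2.46 points had an interval of −5.24 to 0.218, and without the 70 peaks whose interval reached over the start it was −1.69 (−4.51 to 1.00). In flanking peaks of −log10 q 5 or more, the share without a second peak was 5.01 points higher (0.335 to 9.84). When start peaks below that limit were also left out, the shares were 20.9% without and 17.8% with a second peak, with overlapping intervals. The result at this filter therefore depended on which start peaks were counted. With no filter, the difference of peaks with minus without a second peak was −3.79 downstream (−7.32 to −0.455) and 0.123 upstream (−4.53 to 4.56).

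The 4 words did not contribute alike. Those with a CpG were rare, CAACGG at 1.86% and TAACGG at 1.65% of the flanking summits, and stood at 2.00 and 2.16 times their share in the side windows. CAACTG, at 7.44%, and TAACTG, at 6.46%, stood at 1.48 and 1.32 times. The sides differed in these ratios, which have no interval. CAACGG and TAACGG stood at 3.05 and 3.83 times upstream, on 32 and 23 summits, and at 1.45 and 1.63 times downstream. CAACTG and TAACTG stood at 1.37 and 1.60 times upstream and at 1.55 and 1.19 times downstream. CAACGG was found at 2.72% (1.87% to 3.82%) of upstream and 1.38% (0.924% to 1.97%) of downstream summits. Within pairs, the flanking summit alone held a motif in 306 cases, the start summit alone in 232, both in 34 and neither in 1573.

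Words of 12 other factor families were counted in the same windows on either strand. GATA words (AGATAA or TGATAA) were present at 15.7% (14.5% to 17.0%) of flanking summits, 9.36% of their side windows, 10.6% of the windows across all flanks, 6.14% of start peaks and 18.5% of distal peaks. CEBP (TTNCNNAA) stood at 26.8% against 21.5% in side windows, 21.3% across all flanks, 16.4% at starts and 26.6% at distal sites. RUNX (TGTGGT), with 8.72% against 6.58%, and the TAL1-type E-box (CAGATG), with 7.74% against 6.25%, were above starts (5.19% and 4.29%) and below distal sites (13.1% and 9.86%). Across all flanks these words were at 7.70% and 7.58%, and the interval of the E-box at flanking summits (6.85% to 8.71%) included the latter. The PU.1-type ETS word (GAGGAAG) was at 4.54% against 3.52% in side windows, and AP-1 (TGANTCA) at 3.41% against 2.62%. Across all flanks they were at 3.37% and 2.88%, and the interval of AP-1 at flanking summits (2.82% to 4.09%) included the latter. At distal sites they were at 6.37% and 3.48%, and at starts at 4.53% and 1.73%. Words typical of CpG-rich promoters were rarer than at starts. SP/KLF (GGGCGG) stood at 2.77% against 15.8% at starts, the ETS word CCGGAAG at 0.853% against 3.81%, and NRF1 (GCGCATGCG) at none of 3281, which allows up to 0.112%, against 0.380%. Across all flanks SP/KLF was at 1.46% and CCGGAAG at 0.380%, below the intervals of the flanking summits (2.24% to 3.39% and 0.568% to 1.23%). Those windows were not matched to the peaks in distance. In side windows SP/KLF was at 3.84% and CCGGAAG at 0.686%. CTCF (CANNAGGGG), at 1.19%, IRF (GAAANNGAA), at 3.66%, and NFY (CCAAT), at 11.7%, had intervals that included the value of their side windows, 1.42%, 3.57% and 12.0%. Across all flanks NFY was at 13.6%, above the interval of the flanking summits (10.7% to 12.9%).

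**Figure D4:**
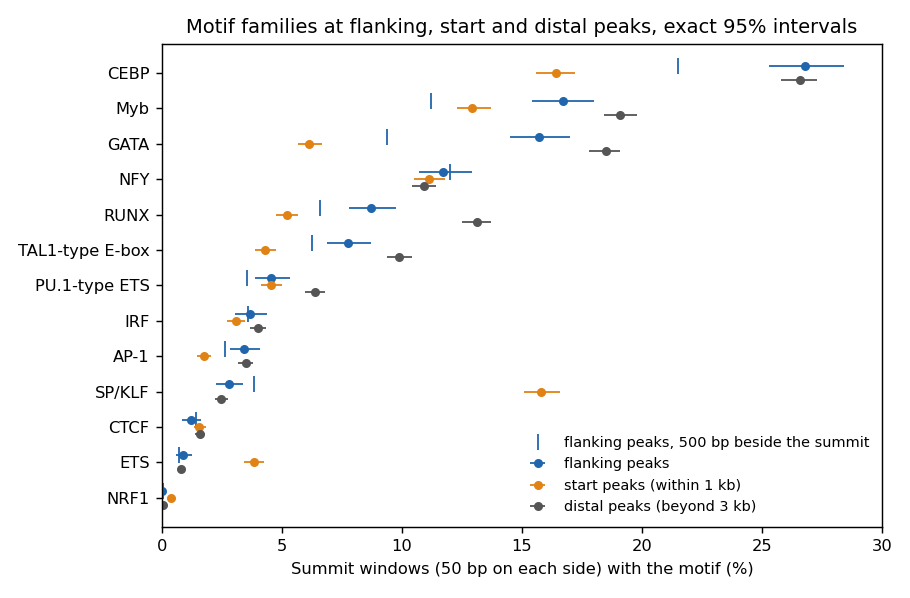
Share of summit windows (50 bp on each side) with a word of each motif family (%), with exact 95% intervals, for flanking, start and distal peaks; the blue tick is the share in windows centered 500 bp beside the flanking summits. GATA, for example, is at 15.7% in the flank, 6.14% at starts and 18.5% at distal sites.

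Some of these motifs were found together with that of Myb. Flanking peaks with a GATA word held a Myb motif in 20.7%, against 15.9% of those without, a difference of 4.79 points (1.22 to 8.72). For CEBP the difference was 3.73 points (0.827 to 6.81) and for RUNX 4.69 (0.156 to 9.93). Words of 2 families can share bases, which was the case at 23 of the 107 summits with a GATA word and a Myb motif, at 26 of 171 for CEBP and at 3 of 60 for RUNX. The differences above include these summits and would be smaller without them. Whether any difference clear of 0 would remain was not tested. SP/KLF went the other way, with a Myb motif in 7.69% of the 91 peaks (difference −9.27, −13.4 to −1.82). In strength, peaks with a Myb motif had a median fold enrichment of 4.49 (4.44 to 4.74) and those without of 4.25 (4.18 to 4.31). Peaks with a RUNX word were at 4.50 (4.40 to 4.72) against 4.27 (4.21 to 4.34), and for GATA, 4.37 (4.23 to 4.47) against 4.29 (4.21 to 4.39), the intervals overlapped.

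Base composition set the flank apart from starts. The median GC content within 50 bp of the summit was 44.6%, the same as in the windows across all flanks, against 57.4% at start peaks and 46.5% at distal peaks. CpG-island-like sequence surrounded 5.30% of the flanking summits, 59.7% of the start summits, 2.55% of the distal summits and 0.978% of the windows across all flanks. Repeats marked in the reference genome held 12.9% (11.8% to 14.1%) of the flanking summits, against 27.7% of the windows across all flanks. Peaks with a second peak at the start were in repeats in 14.3% and those without in 10.4%, a difference of 3.88 points (1.50 to 6.13).

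To see which genes of blood cells had a flanking peak, 8 lists with 289 genes were used. The lists were chosen with earlier results of these data known, so their shares are descriptive. A flanking peak was assigned to 117 of them, 40.5% (34.8% to 46.4%), beside 11.7% of all protein-coding genes, and a start peak to 190, 65.7%, beside 31.4%. Since flanking peaks gather at genes with a start peak, the lists were also read among genes with a start peak, where 26.0% of all genes had a flanking peak.

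**Figure D5:**
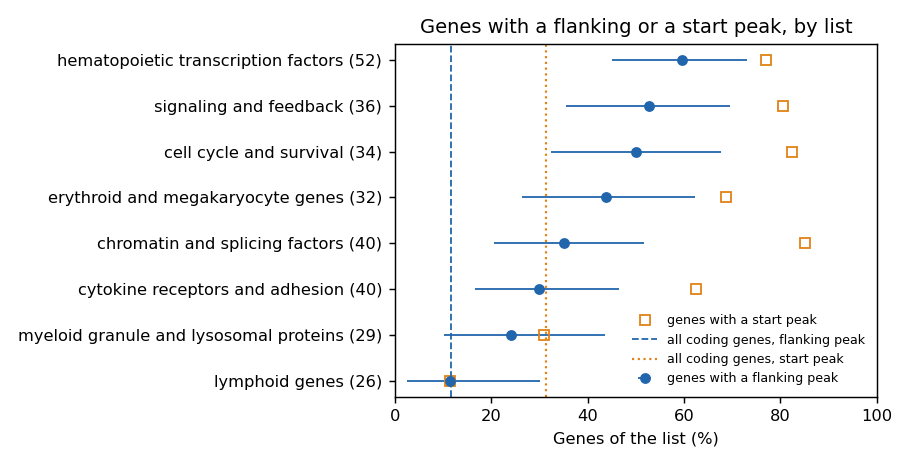
Share of the genes of each list (%) with a flanking peak (filled points, exact 95% intervals) and with a start peak (open squares), with the number of genes in parentheses; the lines mark all protein-coding genes, 11.7% dashed for flanking peaks and 31.4% dotted for start peaks. The share with a flanking peak runs from 11.5% in lymphoid genes to 59.6% in hematopoietic transcription factors.

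Hematopoietic transcription factors had a flanking peak in 31 of 52 genes (59.6%, 45.1% to 73.0%), with 44 peaks, 16 upstream and 28 downstream. Among the 40 with a start peak, 24 (60%, 43.3% to 75.1%) had a flanking peak too, and 7 genes had a flanking peak only. After Lyl1, the highest fold enrichments were at Cebpb, a granulocyte and macrophage factor (9.57-fold on 36 reads, with a Myb motif), and at Zfpm1, the GATA cofactor FOG1 (7.74-fold on 49 reads). Mecom, a stem cell factor with no start peak, had 7.26-fold enrichment 2596 bp into its first intron, with the motif shown above. Nfe2, a factor of erythroid and megakaryocytic genes, had 6.75-fold upstream and 17.0-fold at its start. In the list as a whole the median fold enrichment was 4.17, and 7 of the 44 summits (15.9%) held a Myb motif.

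Signaling and feedback genes had a flanking peak in 19 of 36 (52.8%). Tnfaip3, which encodes the NF-κB inhibitor A20, had peaks of 8.50-fold and 5.49-fold enrichment in its first intron. Syk had 7.77-fold, Stat5b 5.24-fold and Pik3cd 5.15-fold. Of the 29 genes of the list with a start peak, 18 (62.1%, 42.3% to 79.3%) also had a flanking peak.

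Cell cycle and survival genes had one in 17 of 34 (50%). Ccne1, the gene of cyclin E1, had 8.88-fold enrichment, and Cdk6, a kinase that drives progenitors into the cycle, had 8.28-fold with a Myb motif 1042 bp upstream of a start. The interval of that peak reached over the start, no separate start peak was listed, and further flanking peaks of Cdk6 had 5.72-fold, 4.47-fold and 4.15-fold enrichment. Mycn had 6.55-fold, Myc 6.50-fold upstream beside 9.79-fold at its start, and Cdkn1b 6.06-fold.

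Erythroid and megakaryocyte genes had a flanking peak in 14 of 32 (43.8%), and the median fold enrichment of their 19 peaks, 5.40, exceeded the 4.29 of all flanking peaks. Itgb3, the platelet integrin subunit, had 12.4-fold enrichment on 49 reads in its first intron, Epb41, which encodes a protein of the red cell membrane skeleton, 9.28-fold, Slc4a1, the anion exchanger band 3, 7.37-fold, and Alad, an enzyme of heme synthesis, 7.15-fold. Slc4a1 and Alad had no start peak. Chromatin and splicing factors had one in 14 of 40 (35%), although 85.0% had a start peak. Arid1a had 9.10-fold, Kdm6a 8.21-fold in an interval that reached over the start, Ezh2, the methyltransferase of Polycomb complex PRC2, 7.0-fold with a Myb motif, Eed, another PRC2 subunit, 6.97-fold, and Kmt2a 5.72-fold.

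Cytokine receptors and adhesion genes had a flanking peak in 12 of 40 (30.0%). Ifngr2, a chain of the interferon-γ receptor, had 13.2-fold enrichment on 47 reads with a Myb motif and no start peak, Csf1r, the macrophage growth factor receptor, 6.79-fold in its first intron, and Fcgr3, Il6ra and Itgb1 6.34-fold, 5.81-fold and 5.72-fold. Myeloid granule and lysosomal proteins had one in 7 of 29 (24.1%), with a median of 6.84-fold over 8 peaks. The neutrophil serine proteases Prtn3 and Elane had 12.0-fold and 8.84-fold upstream, the latter with a motif 1 bp from the summit. Srgn, the granule proteoglycan serglycin, had 10.1-fold in an interval over its start, Ctsz 7.85-fold and Cyba 5.83-fold. Lymphoid genes had one in 3 of 26 (11.5%, 2.45% to 30.2%), at Igll1, with 10.7-fold enrichment, Dntt, with 5.46-fold, and Blnk, with 3.75-fold. In every list but the lymphoid and the granule list, the interval of the share lay above 11.7%. Read only among genes with a start peak, the share with a flanking peak was 50% (30.6% to 69.4%) in cell cycle genes, 45.5% (24.4% to 67.8%) in erythroid and megakaryocyte genes, 44.4% (13.7% to 78.8%) in granule genes, 38.2% (22.2% to 56.4%) in chromatin and splicing factors, 36% (18% to 57.5%) in receptors and 33.3% (0.840% to 90.6%) in lymphoid genes. Of the 8 lists, only transcription factors, signaling genes and cell cycle genes then had an interval above the 26.0% of all genes. The lists differ in the number of annotated starts per gene, with medians from 2 to 3 and 2 for all genes, and the part of this in the shares was not tested beyond the split by starts. Among genes with 1 coding start, 33 of 73 list genes (45.2%) had a flanking peak, against 8.48% of all. With 2 starts the shares were 33.0% and 9.78%, with 3 they were 34.1% and 13.1%, and with 4 or more 48.1% and 19.4%. This split was not limited to genes with a start peak.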

How the data were processed

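Lin- bone marrow cells of WT mice were analyzed by ChIP-Seq with an antibody against Myb and with rabbit IgG, 1 library each, tagmented on the beads, amplified for 12 PCR cycles and sequenced single-end. Per the labels and the submitters' processing notes, the authors trimmed reads (Cutadapt 1.15), aligned them to mm10 (BWA 0.7.13), processed them with Picard and called peaks with MACS2 2.1.1.20160309. The deposited narrowPeak list gives each peak's coordinates, a score, the fold enrichment over IgG (a ratio) and the −log10 of the p-value and q-value. Total read numbers were not given in the sources used here, so depth was taken from the reads at each summit. Read numbers were recovered from fold enrichment and p-value at a scale of 0.769, and were whole in 100% of peaks (tolerance 0.0005 on the −log10 p-value). The recovery was tested on simulated data.

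Summits were measured to GENCODE vM21 protein-coding transcript starts, and sequences were read from RefSeq GRCm38.p6, the same build, with samtools 1.23.1 and pysam 0.24.0. Python 3.11.15, numpy 2.4.6, pandas 2.3.3, scipy 1.17.1 and matplotlib 3.10.9 were used. Shares have Clopper-Pearson intervals, differences Newcombe intervals, medians order-statistic intervals and read numbers Poisson intervals, which all cover counting error only. The members and gene lists were chosen with earlier results of these data known. Named were the 8 strongest peaks on each side, up to 5 peaks per gene list (some are not reported here), those nearest the bounds, the starts with the most peaks and the 5 pairs with the largest flanking to start ratio. The windows shown for the gene lists and for Serinc3, and further peaks of genes already named, were chosen after values were seen. Alternatives were q-value filters, other start sets and distances, leaving out wide peaks, other motif windows and a core word.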

Additional observations from a re-analysis of the deposited data

How the results depend on the processing

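There was 1 library of each kind, so no library could be left out. No paired analysis was possible because samples could not be paired with 1 library of each kind, and the pairs of the report are peaks at the same start. Of 78 values under 9 alternatives, 42 stayed within the interval of the reported value, or for counts of peaks and genes within 1.5 times of it, and 36 did not. Keeping peaks with −log10 q of 2 or more, the share with a second peak was 60% and the median fold enrichment 4.66. With 5 or more, 1162 peaks at 1065 genes were left, 38.2% upstream and 38.1% with a second peak, with a median fold enrichment of 6.19 and a GC content of 46.5%, and the motif share was 19.7% (upstream 22.5%, downstream 18%, with a second peak 17.8%, without 20.9%). The filter also removed start peaks. Starts of every transcript gave 38.8% upstream, 58.2% with a second peak and 5.82% near a noncoding start, because those starts then define the flank. Distance from the peak edge gave a median of 4.22 and 13.1% near a noncoding start. Without peaks over 2 kb wide, 59.3% had a second peak and the median was 4.23. Leaving out wide peaks removed start peaks too. Counting any start of the gene, 74.8% had a second peak. With motif windows of 25 bp on each side, the share was 8.87% (upstream 9.45%, downstream 8.55%, with a second peak 8.30%, without 9.95%), and with 100 bp 29.7% (31.7%, 28.5%, 28.9% and 31.2% in the same order). The core word AACNG gave 54.4% (54.3%, 54.4%, 52.9% and 57.1%), so upstream was no longer above downstream, and the cause was not tested. Single peaks are limited by depth, since the median flanking summit had 17 reads.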

Other observations

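Flanking peaks per 100 protein-coding genes ranged from 10.3 on chromosome 7 to 21.8 on chromosome 12 among the autosomes, and were 4.43 on X (42 peaks, 948 genes). None of the flanking peaks lay on Y (183 genes). Most flanked genes had a single flanking peak, 2009 of 2564, and 4 genes had 6. In the 70 peaks with no second peak whose interval reached over the start, 30.0% (19.6% to 42.1%) held a Myb motif, on a median of 36.5 reads. RUNX words were found at 7.79% of flanking peaks with a second peak and at 10.5% of those without, a difference of −2.69 percentage points (−4.88 to −0.644), and TAL1-type E-boxes at 6.95% and 9.24% (−2.30, −4.38 to −0.364).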
